A study of Mus musculus with 9 samples.

Results

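Sertoli cells are the somatic cells of the seminiferous epithelium. They surround the developing germ cells and release proteins into the tubule and around the germ cells. Their products include carriers of metals, hormones and lipids, proteases, and the inhibitors that hold those proteases in check. The release of several of these products changes with the stage of the germ cells that a Sertoli cell surrounds. Examined here were 7 genes whose products are listed as secreted by Sertoli cells, out of 24505 genes in the count table. They were taken by name and not by their values, and each was present in the table and passed the filter on low counts in all 3 comparisons.

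They are taken in the order of carriers (Clu and Trf), cystatins (Cst9 and Cst12), a protease (Ctsl) and a defensin (Defb19). Aard, a protein with no role given here, comes last. Whether the Aard protein is secreted was not checked. The measurements are mRNA counts, so the secreted proteins themselves were not measured.

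The libraries came from cells sorted as germ cells, and Sertoli cells were not sorted. The paper describes the sorted populations as highly enriched, with a purity short of complete. Markers of Sertoli cells, among them Sox9 and Wt1, were detected in every library. Which cell type the counts of the genes examined here came from was not tested. There were 9 libraries of mRNA, 3 in each of 3 groups, from EGFP+ cells that had been sorted by fluorescence from dissociated testes of Uchl1-eGfp mice. In these mice the Uchl1 promoter drives EGFP, strongly in spermatogonia and more weakly in preleptotene (PL) spermatocytes. The mice had been C57BL/6 and were outcrossed to CD-1, and the pups of a litter were pooled for each dissociation. All 3 groups had received the inhibitor of retinoic acid (RA) synthesis WIN 18,446 at 100 µg per g of body weight from postnatal day (P) 1, with the last day before the switch given as P10 in the design text and as P11 in the sample records. They then received 10 µl of RA at 10 µg per µl at P11, which starts spermatogonial differentiation in step throughout the testis. Intermediate and type B (In/B) spermatogonia were sorted at P17 as EGFP-bright cells, and PL spermatocytes at P19 as EGFP-dim cells. For RA-sufficient PL the inhibitor was stopped after the RA injection, whereas for RA-deficient PL it was continued. The paper describes the In/B cells as RA-sufficient, so RA-deficient PL against In/B differs in stage, age and regimen together. The study gives the number of cell preparations behind a group only as a range, so the spread between libraries may in part be technical.

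Total counts ran from 12612959 to 27042274 per library. The RA-deficient libraries held 25048240 to 27042274 counts but only 14769 to 15327 genes with a count. RA-sufficient PL had 17541 to 18434 such genes and In/B 16758 to 18002, so a 0 in RA-deficient PL need not mean that a gene was silent. Levels are given as CPM (counts per 1e+06 counts of the library) after scaling by trimmed mean of M values (TMM) over all 9 libraries, and n counts libraries. A gene was called when its log2 fold change was above 1 in size and its adjusted p below 0.05, where p came from the quasi-likelihood test of edgeR and was adjusted over all genes tested by the method of Benjamini and Hochberg. Germ cell markers were present in every library, with a summed level of 6021 to 6782 CPM over 11 genes in In/B, 4465 to 6049 CPM in RA-sufficient PL and 7612 to 9294 CPM in RA-deficient PL. RA-deficient replicate 3 stood apart from the other libraries of its group. Its level of Kit, a receptor of differentiating spermatogonia, was 20.3 CPM, against 561 and 521 CPM in replicates 1 and 2, and its level of Dmrt1 was 111 CPM against 460.2 and 485 CPM. Kit was at 20.2 to 41.0 CPM in RA-sufficient PL and at 327 to 404 CPM in In/B. Dmrt1 was at 72.1 to 76.8 CPM and at 534 to 711 CPM. For Kit, replicate 3 thus lay within the RA-sufficient range, and replicates 1 and 2 lay above the In/B range. For Dmrt1 all 3 lay between those ranges. In/B replicate 1 was the lowest of the 9 libraries for 6 of the 7 secreted-protein genes, and RA-sufficient replicate 1 was the highest for all 7. Results are therefore given with and without each of these libraries where a call or a direction changed.

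Of the 7 genes, 3 had a promoter window in the RefSeq table used here, which covers 250 bases before to 50 bases after the start of a gene on GRCm38.p6. They are shown because 2 of them, Cst9 and Cst12, are nearby genes of the cystatin cluster on chromosome 2. Both were called in the 2 comparisons with RA-sufficient PL. The third, Ctsl, encodes a protease of the class that many cystatins inhibit. Capitals mark every match, on either strand, to 3 motifs that do not overlap one another in these windows. GATAA is the core letters bound by factors of the GATA family. ACAAAG and ACAATG are letters bound by SOX proteins, and AGGTCA is the repeat unit bound by nuclear receptors.
Cst9, chr2:148834897-148835196, + strand: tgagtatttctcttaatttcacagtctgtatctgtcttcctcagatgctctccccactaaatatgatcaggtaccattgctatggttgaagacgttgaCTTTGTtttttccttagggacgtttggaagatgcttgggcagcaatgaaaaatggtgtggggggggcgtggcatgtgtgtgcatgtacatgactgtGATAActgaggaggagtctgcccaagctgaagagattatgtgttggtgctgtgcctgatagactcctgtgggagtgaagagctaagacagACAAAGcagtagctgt
Cst12, chr2:148789115-148789414, + strand: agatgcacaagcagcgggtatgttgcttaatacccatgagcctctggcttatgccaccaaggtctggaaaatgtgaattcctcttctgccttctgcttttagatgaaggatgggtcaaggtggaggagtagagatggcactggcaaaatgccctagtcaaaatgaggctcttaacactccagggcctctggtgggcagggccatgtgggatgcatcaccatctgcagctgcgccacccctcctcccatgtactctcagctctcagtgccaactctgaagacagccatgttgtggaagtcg
Ctsl, chr13:64370471-64370770, - strand: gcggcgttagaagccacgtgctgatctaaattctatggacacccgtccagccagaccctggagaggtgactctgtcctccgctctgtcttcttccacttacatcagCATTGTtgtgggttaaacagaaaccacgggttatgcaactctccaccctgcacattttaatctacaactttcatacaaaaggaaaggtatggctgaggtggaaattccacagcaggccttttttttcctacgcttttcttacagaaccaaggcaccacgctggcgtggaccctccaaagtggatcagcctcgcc

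The Cst9 window held GATAA 56 bases before the start and ACAAAG at 152 bases before it, the latter read on the opposite strand, with another ACAAAG at position 35 after the start. The Ctsl window held ACAATG on the opposite strand 144 bases before the start. No match to these letters was found in the Cst12 window, and none to AGGTCA in any of the 3. Of all 32851 windows of the same length in the table, 25.4% held GATAA, 28.6% held ACAAAG or ACAATG and 16.3% held AGGTCA, so such matches are common, and they were read only as a description of the sequence.

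All 7 genes were higher in RA-sufficient PL than in In/B, and all 7 were lower in RA-deficient than in RA-sufficient PL. Between RA-deficient PL and In/B only Aard was called. With RA-deficient replicate 3 or In/B replicate 1 left out, these counts were the same, 7, 7 and 1 of 7. Without RA-sufficient replicate 1, 6 of 7 were called between the PL groups, Trf being the one lost (adjusted p = 0.0504, edgeR). Of all genes tested, 26.1% were called higher and 19.3% lower in RA-sufficient PL against In/B, 11.4% higher and 11.8% lower in RA-deficient PL against In/B, and 4.47% higher and 11% lower in RA-deficient against RA-sufficient PL. The median log2 fold change of the 7 genes was 3.85 in the first of these comparisons, 0.90 in the next and -3.08 between the PL groups, beside 0.04, 0.0038 and -0.089 over all genes tested. The 3 comparisons share libraries in pairs, so these values are not independent of each other. In sorted bulk samples, fewer cells of a type and less RNA per cell cannot be told apart.

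**Figure D1:**
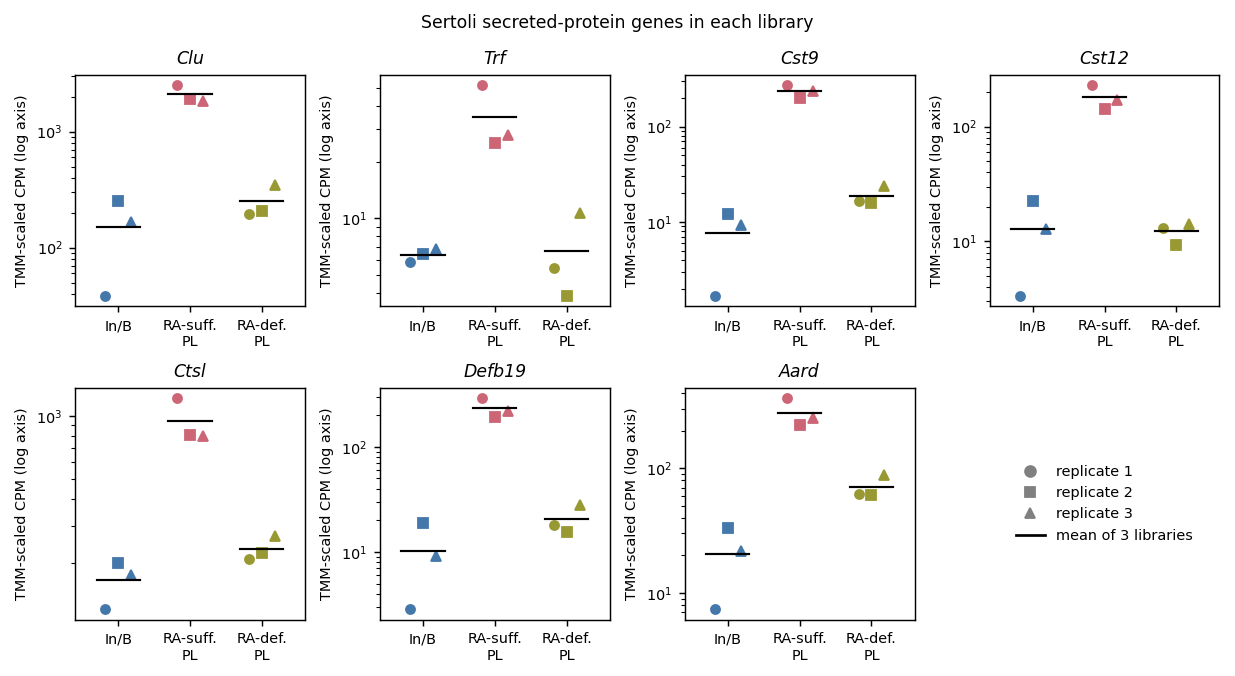
Level of each of the 7 genes in each library, as TMM-scaled CPM on a log axis, with circles, squares and triangles for replicates 1, 2 and 3 and a line for the mean of 3 libraries. In every panel the 3 RA-sufficient PL libraries lie above all 6 others, and RA-deficient replicate 3 is the highest of its group. The share of all genes with such a separation was not counted.

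Clu encodes clusterin, a secreted chaperone and lipid carrier that is among the most abundant proteins released by Sertoli cells. It lies at chr14:66587320-66600385 on the + strand (mm9). Its level was 38.5, 250.1 and 168 CPM in In/B replicates 1, 2 and 3, and 2519, 1902 and 1849 CPM in RA-sufficient PL. In RA-deficient PL it was 194, 208 and 348 CPM. The RA-sufficient libraries were all above the others, whereas the ranges of In/B and RA-deficient PL overlapped. The log2 fold change was 3.85 (SE 0.57, adjusted p = 4.49e-04, edgeR), or 14.4-fold, from In/B to RA-sufficient PL. RA-deficient against RA-sufficient PL gave -3.08 (SE 0.27, adjusted p = 9.55e-04, edgeR), or 8.43-fold lower in RA-deficient PL. RA-deficient PL and In/B did not differ beyond the replicate spread, with a log2 fold change of 0.90 (95% interval -0.39 to 2.18, adjusted p = 0.251, edgeR).

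Trf encodes transferrin, which carries iron and which Sertoli cells supply to germ cells that lie beyond the blood-testis barrier. It lies at chr9:103106331-103132774 on the - strand (mm9), where the annotation also has another model of the same name on that strand. It was the least abundant of the 7 per length, with 5.81, 6.43 and 6.84 CPM in In/B, 51.7, 25.2 and 27.8 CPM in RA-sufficient PL, and 5.40, 3.84 and 10.7 CPM in RA-deficient PL. RA-sufficient replicate 1 stood well above the other libraries of its group, and RA-deficient replicate 3 was above all In/B libraries while replicates 1 and 2 were below them. Trf rose by a log2 fold change of 2.51 (SE 0.31, adjusted p = 1.67e-04, edgeR) from In/B to RA-sufficient PL, and between the PL groups it was lower by 5.32-fold, at -2.41 (SE 0.49, adjusted p = 0.0140, edgeR). Without RA-sufficient replicate 1 this last difference missed the threshold, at -1.98 with an adjusted p of 0.0504 in edgeR, and it also missed it in a test against a fold change of 2 (adjusted p = 0.0758, edgeR). RA-deficient PL against In/B gave 0.23 (95% interval -0.82 to 1.28, adjusted p = 0.737, edgeR), a direction that turned to -0.29 without RA-deficient replicate 3 and to -0.090 when scaled by library size only.

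Cst9 and Cst12 encode cystatins that are made in the testis. Cystatins are a family of small proteins, many of which are secreted and inhibit cysteine proteases. Whether the products of Cst9 and Cst12 inhibit proteases was not checked. Cst12 lies at chr2:148615097-148619282 and Cst9 at chr2:148660883-148664474 (mm9), both on the + strand, with 41.6 kb and the cystatin genes Cst8 and Cst13 between them. Cst9 was at 1.68, 12.1 and 9.21 CPM in In/B, 273, 199.8 and 235 CPM in RA-sufficient PL, and 16.5, 15.8 and 23.8 CPM in RA-deficient PL. Its RA-deficient libraries were all above its In/B libraries and well below the RA-sufficient ones. Cst12 was at 3.35, 22.3 and 12.8 CPM in In/B, 229.8, 141 and 169 CPM in RA-sufficient PL, and 13.0, 9.31 and 14.3 CPM in RA-deficient PL. For Cst12 the RA-deficient libraries lay inside the In/B range.

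Cst9 had the highest rise of the 7 into RA-sufficient PL, at a log2 fold change of 4.99 (SE 0.56, adjusted p = 1.05e-04, edgeR), or 31.7-fold. Cst12 rose by 3.87 (SE 0.55, adjusted p = 3.68e-04, edgeR), or 14.6-fold. Between the PL groups Cst12 had the largest fall, at -3.90 (SE 0.27, adjusted p = 7.90e-04, edgeR), beside -3.66 (SE 0.23) for Cst9 with the same adjusted p. Against In/B, RA-deficient PL gave 1.47 for Cst9 (95% interval 0.067 to 2.86, adjusted p = 0.0956, edgeR), which passed the threshold with DESeq2 (1.46, adjusted p = 0.0345). The corresponding value of Cst12 was 0.11 (95% interval -1.22 to 1.44, adjusted p = 0.904, edgeR), and its direction turned under 4 alternatives, to between -0.34 without In/B replicate 1 and -0.014 without RA-deficient replicate 3, while it was 0.73 without In/B replicate 2. Without In/B replicate 2 the rise of Cst12 into RA-sufficient PL was 4.51, which is 1.56 times as large a fold.

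The proportion of Cst9 to Cst12 was lower in the 3 In/B libraries than in those of both PL groups. There were 0.500, 0.543 and 0.721 counts of Cst9 per count of Cst12 in the In/B libraries, 1.19, 1.42 and 1.39 in RA-sufficient PL, and 1.27, 1.70 and 1.67 in RA-deficient PL. The means were 0.588 ± 0.117, 1.33 ± 0.126 and 1.55 ± 0.239 (SD, n = 3). On the log2 scale the RA-sufficient ratio was 1.19 above that of In/B and the RA-deficient ratio 1.40 above it, with no overlap in either comparison (two-sided exact permutation test, p = 0.1 in each, the smallest p that 3 against 3 libraries allow). The PL groups overlapped and differed by 0.21 (exact permutation p = 0.3). This ratio was chosen after the values of both genes were seen, and how many other pairs of genes separate in this way was not counted. In/B replicate 1 held only 30 counts of Cst9 and 60 of Cst12.

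Around these genes, most members of the cystatin cluster were barely detected. Within 200 kb on either side of the Cst12 to Cst9 interval, GENCODE M1 lists 14 protein-coding genes, of which 12 were in the count table. Cst13 and Cstl1 had at most 1 count in any library, and Cst11 at most 5. Cst8, an epididymal and testicular cystatin, had 32, 3 and 12 counts in RA-sufficient PL, 0, 4 and 0 counts in In/B and 0 counts in every RA-deficient library. Cst3 encodes cystatin C, the widely made secreted cystatin, and it had 71.3 to 143 CPM in In/B, 113 to 173 CPM in RA-sufficient PL and 157 to 212 CPM in RA-deficient PL. It was not called in any of the 3 comparisons, with a log2 fold change of 0.35 (SE 0.19, adjusted p = 0.209, edgeR) between the PL groups, and it lies 82.4 kb from the start of Cst12.

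The gene next to Cst12 on the other side, 8030411F24Rik, behaved differently from Cst12 in RA-deficient PL. It was named after its values were seen. It had 710, 541 and 968 counts in RA-sufficient PL, 0, 39 and 15 counts in In/B, and 0 counts in all 3 RA-deficient libraries. In RA-sufficient PL this amounted to 22.7%, 23.3% and 25.2% of the Cst12 counts of the same library, and to 6.62% and 6.64% in In/B replicates 2 and 3. In the RA-deficient libraries Cst12 had 325, 235 and 327 counts, and 0 counts of 8030411F24Rik allow up to 0.923%, 1.28% and 0.917% of them, for counting error only. Set against a floor of 3 counts in each RA-deficient library, its mean of 42.6 CPM in RA-sufficient PL was 345-fold higher. That floor covers counting error only. The RA-deficient libraries also detected fewer genes in all, so the value is not a lower bound on the difference between the cells. Among the 9727 genes that averaged 10 CPM or more in RA-sufficient PL, 2 (0.021%) had 0 counts in all 3 RA-deficient libraries, 8030411F24Rik and Sowahd.

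**Figure D2:**
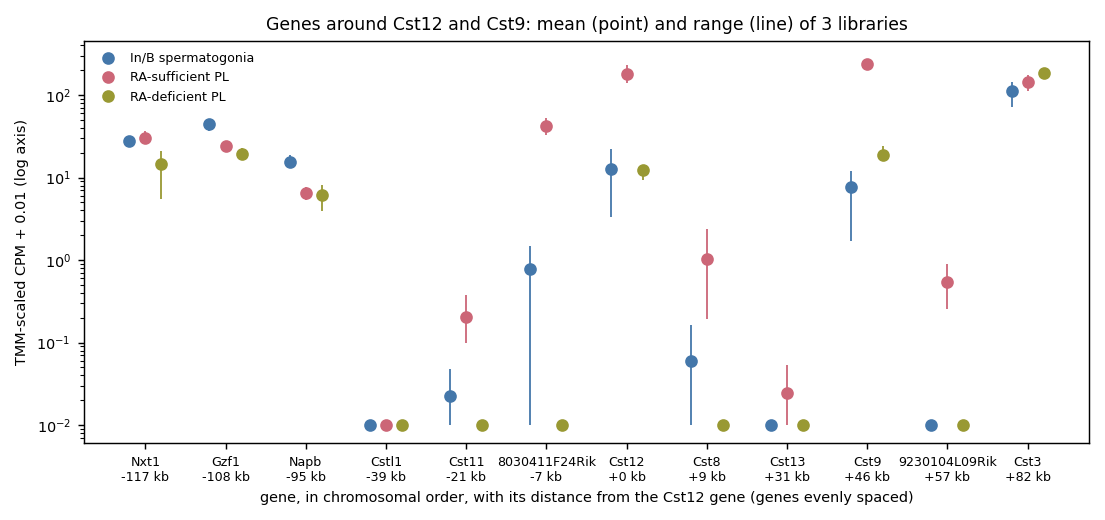
Levels of the 12 protein-coding genes around Cst12 and Cst9 that the table holds, in chromosomal order and evenly spaced, each with its distance in kb from the start of Cst12, as TMM-scaled CPM plus 0.01 on a log axis. Points are means and lines the range of 3 libraries. Cst12, Cst9 and 8030411F24Rik are highest in RA-sufficient PL, 8030411F24Rik is at 0 in RA-deficient PL, and Cst3 is at similar levels in the 3 groups.

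Ctsl encodes cathepsin L, a lysosomal cysteine protease whose proenzyme Sertoli cells also secrete. It lies at chr13:64464522-64471614 on the - strand (mm9). It was at 120.4, 199 and 175 CPM in In/B, 1209, 807 and 801 CPM in RA-sufficient PL, and 209, 222 and 268 CPM in RA-deficient PL. The 3 groups did not overlap, and RA-deficient PL lay just above In/B. Ctsl rose by a log2 fold change of 2.57 (SE 0.23, adjusted p = 3.62e-05, edgeR) from In/B to RA-sufficient PL, or 5.93-fold. It was 4.08-fold lower in RA-deficient than in RA-sufficient PL, at -2.03 (SE 0.21, adjusted p = 0.00159, edgeR). RA-deficient PL against In/B gave 0.67 (SE 0.19, adjusted p = 0.0253, edgeR), which passed the limit on p but not that on the fold change.

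Defb19 encodes a beta-defensin, one of a family of small secreted antimicrobial peptides, and its mRNA is known from Sertoli cells. It lies at chr2:152401822-152406048 on the - strand (mm9), 3737.3 kb from Cst9. It was at 2.85, 18.9 and 9.16 CPM in In/B, 289, 193 and 218 CPM in RA-sufficient PL, and 17.8, 15.6 and 28.1 CPM in RA-deficient PL. RA-sufficient PL stood apart, and the ranges of the others overlapped. The log2 fold change was 4.54 (SE 0.55, adjusted p = 1.64e-04, edgeR), or 23.3-fold, from In/B to RA-sufficient PL, and it was 5.31 without In/B replicate 2, a fold 1.70 times as large. RA-deficient against RA-sufficient PL gave -3.52 (SE 0.29, adjusted p = 8.15e-04, edgeR), or 11.5-fold lower. Against In/B, RA-deficient PL gave 1.17 (95% interval -0.18 to 2.53, adjusted p = 0.159, edgeR), and 1.91 without In/B replicate 2 (adjusted p = 0.0527, edgeR), a fold 1.66 times as large. Nearby lies Defb36, another beta-defensin of Sertoli cells at chr2:152430063-152438465, which had means of 2.76, 54.0 and 6.58 CPM in In/B, RA-sufficient and RA-deficient PL, and a log2 fold change of -3.05 (SE 0.51, adjusted p = 0.00734, edgeR) between the PL groups.

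Aard encodes an alanine- and arginine-rich domain protein. It lies at chr15:51871653-51877267 on the + strand (mm9). It was at 7.44, 32.9 and 21.9 CPM in In/B, 362, 223 and 251 CPM in RA-sufficient PL, and 61.9, 60.5 and 88.7 CPM in RA-deficient PL. It was the only one of the 7 called in all 3 comparisons, and its RA-deficient libraries overlapped neither other group. Its log2 fold change was 3.80 (SE 0.47, adjusted p = 1.70e-04, edgeR) from In/B to RA-sufficient PL and -2.0 (SE 0.25, adjusted p = 0.00276, edgeR) between the PL groups. RA-deficient PL was above In/B by 1.94 (SE 0.46, adjusted p = 0.0130, edgeR), or 3.84-fold. That call held with each library left out in turn (log2 fold change 1.54 to 2.40, highest adjusted p = 0.0475, edgeR), and was lost in a test against a fold change of 2 (adjusted p = 0.109, edgeR).

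**Figure D3:**
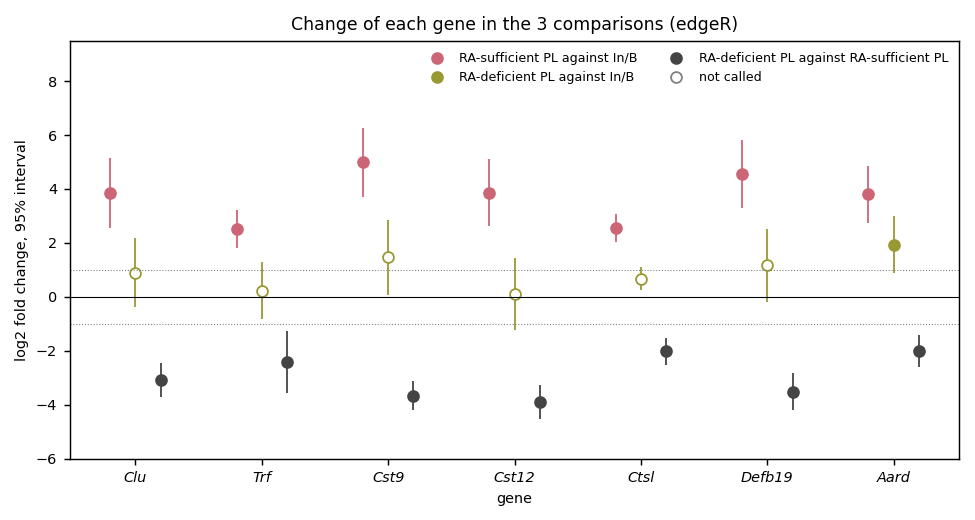
Log2 fold change of each gene in the 3 comparisons (y axis), from edgeR, with the 95% interval as a line, filled points for called and open points for not called changes, and dotted lines at -1 and 1. All changes against RA-sufficient PL are filled and point the same way, and of the RA-deficient PL to In/B changes only that of Aard, 1.94, is filled.

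The order of the 7 genes by level per length, in mean CPM per kb of exon in GENCODE M1, differed between the groups. In RA-sufficient PL the order was Clu (608 ± 108 CPM per kb, SD, n = 3), Defb19 (592), Ctsl (476), Cst9 (343), Cst12 (275), Aard (207) and Trf (10.5). Clu and Defb19 changed places between libraries, with Defb19 above Clu in replicates 1 and 3, so these neighbours were not separated beyond their spread. In RA-deficient PL the order was Ctsl (118), Clu (72.7), Aard (52.3), Defb19 (52.0), Cst9 (27.3), Cst12 (18.6) and Trf (2.01 CPM per kb), and Aard and Defb19 exchanged places in replicate 3. In all 3 In/B libraries Ctsl was highest, followed by Clu and Defb19, and Trf was lowest. Aard thus stood at the sixth place in every RA-sufficient library and at the third or the fourth in the RA-deficient ones.

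The 7 genes did not fall by the same factor between the PL groups. Each gene was therefore also expressed as a percentage of the Clu counts of the same library, a ratio that needs no scaling between libraries. Aard was at 14.4%, 11.7% and 13.6% of Clu in RA-sufficient PL and at 31.9%, 29.1% and 25.5% in RA-deficient PL. Ctsl was at 48.0%, 42.5% and 43.3% in RA-sufficient PL, and at 108%, 107% and 76.9% in RA-deficient PL. Both were thus higher relative to Clu in every RA-deficient library, by 1.12 and 1.11 on the log2 scale. Cst12 went the other way, from 9.12%, 7.41% and 9.16% of Clu to 6.70%, 4.47% and 4.11%, a log2 difference of -0.78. Cst9 was at 10.8%, 10.5% and 12.7% in RA-sufficient and 8.51%, 7.61% and 6.85% in RA-deficient PL (-0.57), and Defb19 at 11.5%, 10.1% and 11.8% and at 9.19%, 7.48% and 8.08% (-0.43). The groups did not overlap for these 5 genes, whereas for Trf they did (log2 difference 0.65).

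For each of the 5 the two-sided exact permutation test gave p = 0.1, the smallest that 3 against 3 libraries allow, and 0.15 after Benjamini-Hochberg adjustment over 18 such tests, and for Trf it gave 0.2 (adjusted 0.257). Of all genes tested, 78.6% were higher relative to Clu in RA-deficient PL with no overlap and 2.53% were lower. The rise of Aard and Ctsl relative to Clu is thus shared by most genes of the table, and the fall of Cst9, Cst12 and Defb19 by few. That fall is not particular to these 3 among Sertoli genes. Between the PL groups, beside -3.08 for Clu, other secreted products had log2 fold changes from -5.11 to 0.35. Sertoli markers that are not secreted ran from -6.13 to 1.09. How many of them fell further than Clu was not counted. Against the summed counts of Sertoli markers that are not secreted, 15 intracellular and membrane proteins, in place of Clu, the differences were -0.27 for Clu itself, -0.84 for Cst9, -1.05 for Cst12, -0.70 for Defb19, 0.84 for Ctsl, 0.85 for Aard and 0.38 for Trf, in the same directions.

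**Figure D4:**
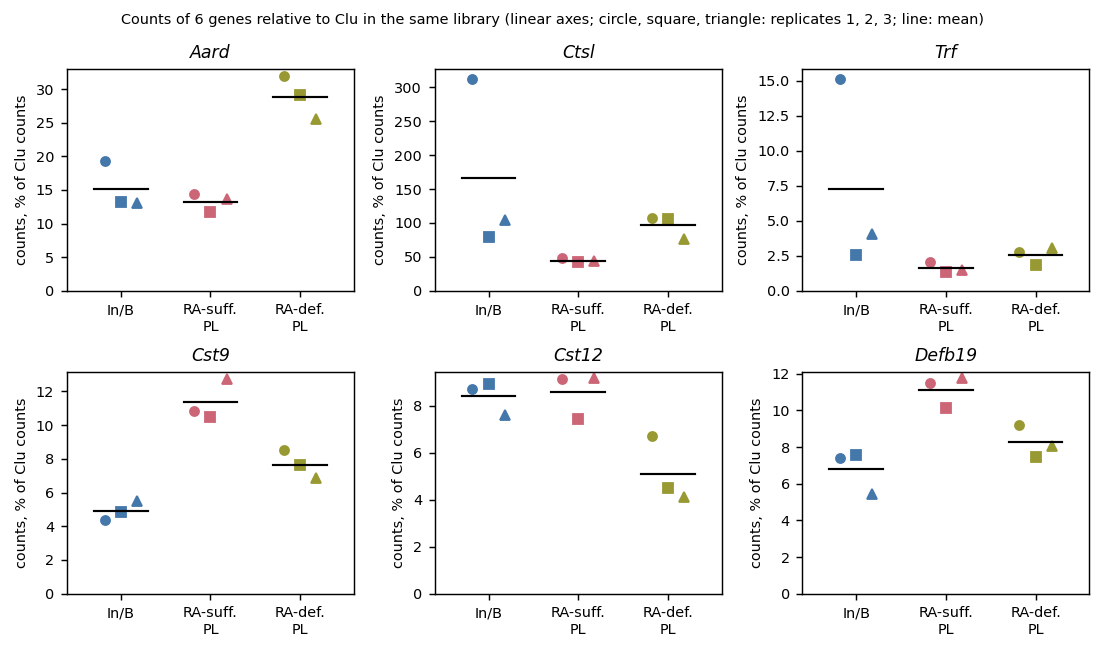
Counts of each of 6 genes as a percentage of the Clu counts of the same library (linear y axes from 0), with circles, squares and triangles for replicates 1, 2 and 3 and a line for the mean. Aard and Ctsl are higher relative to Clu in RA-deficient than in RA-sufficient PL, and Cst9, Cst12 and Defb19 are lower. In/B replicate 1 is far above the rest for Ctsl and Trf.

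Nearly all markers of Sertoli cells that are not secreted moved in the same directions as the 7 genes in the 2 comparisons with RA-sufficient PL. The list held 16 transcription factors, receptors, junction and cytoskeletal proteins, of which 15 were in the table. Their summed level was 47.0 to 149 CPM in In/B, 1063 to 1484 CPM in RA-sufficient PL and 139 to 240.1 CPM in RA-deficient PL, and that of the 7 genes was 180.0 to 542 CPM, 3490.2 to 4933 CPM and 518 to 781 CPM. Of the markers tested, 14 of 14 were called higher in RA-sufficient PL than in In/B (median log2 fold change 3.69), and 14 of 15 were called lower in RA-deficient than in RA-sufficient PL (median -2.71). The exception was Krt18, below 1 CPM in both groups. In RA-deficient PL against In/B, 12 of 15 markers had a positive log2 fold change (median 0.96, lowest -1.54). There, 2 were called higher and 0 lower. Fshr, the receptor of follicle-stimulating hormone and a defining gene of Sertoli cells, had 350, 299 and 368 counts in RA-sufficient PL, 0, 0 and 20 counts in RA-deficient PL and 2, 40 and 22 counts in In/B. Its log2 fold change between the PL groups was -6.13 (SE 1.34, adjusted p = 0.0184, edgeR), and that of the gap junction gene Gja1 was -4.55 (SE 0.54, adjusted p = 0.00237, edgeR). Sox9 and Wt1, which direct Sertoli cell identity, were detected in all 9 libraries. What the presence of Sertoli cell mRNA in the sorted cells contributes to each value of the 7 genes was not tested.

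Other secreted products of Sertoli cells gave mixed results. In RA-sufficient PL against In/B, 14 of 17 tested were called higher and 0 lower (median 4.05), among them Inha, the alpha subunit of inhibin (4.63, SE 0.54, adjusted p = 1.36e-04, edgeR), Kitl, the ligand of KIT (3.03, SE 0.38), and Apoe, a lipid carrier (1.05, SE 0.27). Ptgds, which makes prostaglandin D2, was also called higher (adjusted p = 4.45e-04, edgeR), with 0, 1 and 0 counts in In/B, 93, 30 and 36 counts in RA-sufficient PL, and 0, 32 and 27 counts in RA-deficient PL. Between the PL groups 12 of 19 were called lower and 0 higher (median -2.99). Timp1, an inhibitor of metalloproteinases that overlaps Syn1 on the opposite strand, was at -5.11 (SE 1.04, adjusted p = 0.0146, edgeR), with 142, 116 and 182 counts in RA-sufficient PL and 1, 16 and 1 counts in RA-deficient PL. Sparc, a secreted matrix protein, was at -4.22 (SE 0.38, adjusted p = 9.55e-04, edgeR), Timp2, of the same family as Timp1, at -2.74 (SE 0.44), and Amh, the anti-Müllerian hormone, at -1.64 (SE 0.38). The 7 not called were Mfge8, Cst3, Apoe, Cp, Gdnf, Plau and Ptgds. Mfge8, a secreted protein that helps the uptake of dying cells, had a log2 fold change of 0.15 (SE 0.23) and was not called in any of the 3 comparisons. Against In/B, 3 of 16 were called higher in RA-deficient PL (Amh 2.77, Timp2 1.79 and Apoe 1.03) and 0 lower, with a median of 0.83.

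**Figure D5:**
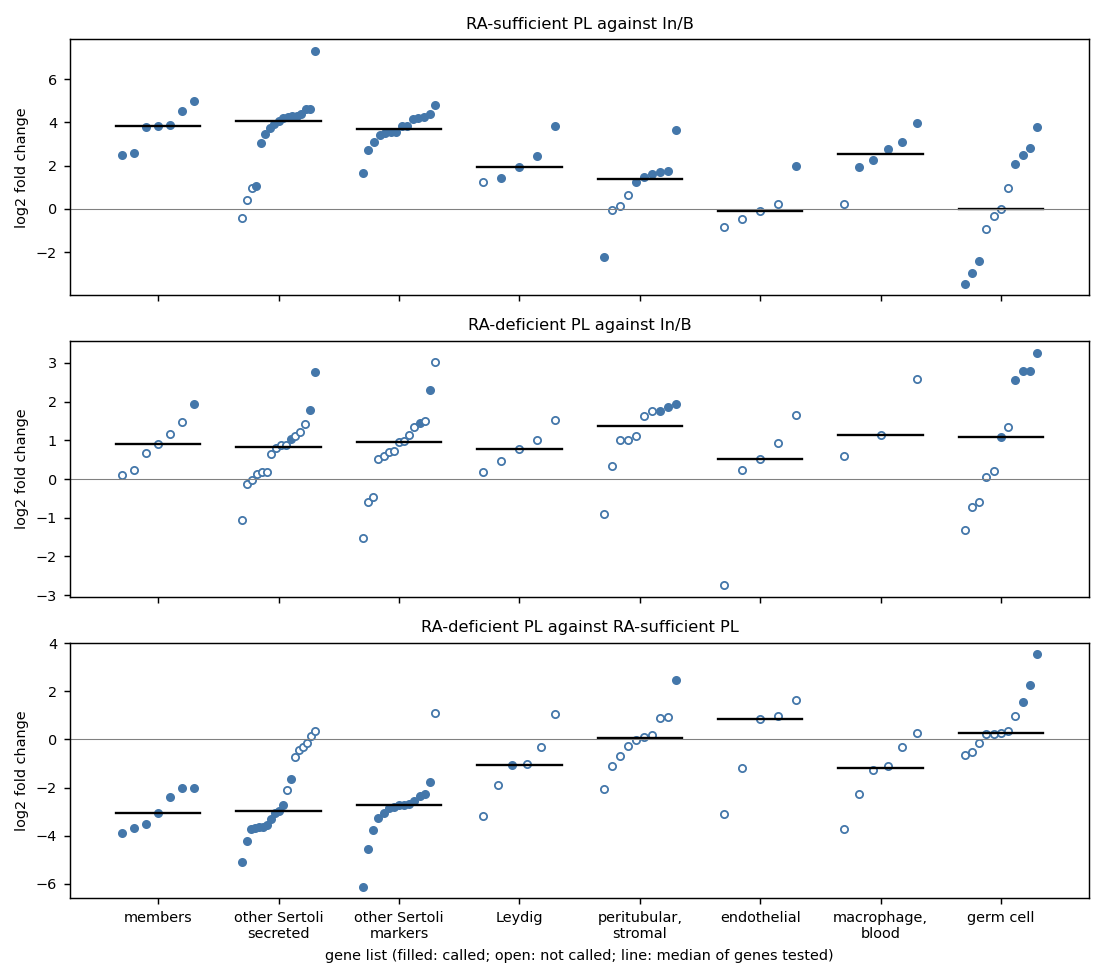
Log2 fold change of every tested gene (points, y axis) in the lists of secreted products and cell type markers (x axis), in the 3 comparisons, with filled points for called changes and a line for the median of the genes tested. The secreted-protein genes and both other Sertoli lists lie above 0 at medians of 3.69 to 4.05 in RA-sufficient PL against In/B and below 0 at -3.08 to -2.71 between the PL groups.

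Markers of other somatic cells of the testis were summed in the same way. The 7 Leydig markers summed to 10.2 to 16.6 CPM in In/B, 40.6 to 46.5 CPM in RA-sufficient PL and 12.0 to 24.8 CPM in RA-deficient PL, and the Leydig hormone gene Insl3 was at 0 in all but RA-sufficient replicate 3. Of the Leydig markers tested, 4 of 5 were called higher in RA-sufficient PL than in In/B, among them Hsd3b6 (3.85, SE 0.43), an enzyme of steroid synthesis, and 1 of 6 was called lower in RA-deficient than in RA-sufficient PL, Star (-1.07, SE 0.25), which moves cholesterol into mitochondria. The 10 peritubular and stromal markers summed to 79.3 to 98.3 CPM in In/B, 95.5 to 109.8 CPM in RA-sufficient PL and 141 to 151 CPM in RA-deficient PL. Col1a1, a collagen, weighed on these sums, with means of 56.7, 11.7 and 64.4 CPM in the same order. The sums therefore do not give the direction of the other markers. The median log2 fold change of the 10 was 1.37 in RA-sufficient PL against In/B, with 8 positive. It was 1.36 in RA-deficient PL against In/B, with 9 positive, and 0.06 between the PL groups, with 5 positive. Of the 10, 6 were called higher and 1 lower in RA-sufficient PL against In/B, and 3 higher and 0 lower in RA-deficient PL against In/B. Only Col1a1 was called between the PL groups (2.47, SE 0.34). The 5 endothelial markers stayed at 6.39 to 19.1 CPM over all libraries, with 1 called, Kdr, in RA-sufficient PL against In/B. The 10 macrophage and blood markers in the table summed to 4.47 to 5.63, 10.9 to 19.9 and 4.99 to 11.3 CPM, with 5 of 6 called higher in RA-sufficient PL against In/B and 0 of 6 called between the PL groups, and the globin genes Hba-a1 and Hbb-b1 were at 0 in all 9 libraries. The 6 spermatid markers summed to at most 6.66 CPM. Among 11 germ cell markers, 3 were called higher in RA-deficient than in RA-sufficient PL, Kit (3.54, SE 1.03), Dmrt1 (2.25, SE 0.50) and Uchl1 (1.56, SE 0.25), and 0 lower. The rise of Kit rested on RA-deficient replicates 1 and 2, since replicate 3, at 20.3 CPM, lay within the RA-sufficient range. The part of these cells in the values of the 7 genes was not tested.

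The families and partners of the 7 genes did not move as one. Of the other cystatins and stefins, 15 were in the table and only 5 passed the filter for the comparison between the PL groups, where 1 was called, Ahsg, which encodes the plasma protein fetuin-A (-1.33, SE 0.34). In RA-sufficient PL against In/B, 3 of 5 were called higher and 1 lower, Cstb, the intracellular cystatin B (-1.32, SE 0.25). Of the other cathepsins, 2 of 11 were called higher in RA-sufficient PL than in In/B and 2 of 12 lower in RA-deficient than in RA-sufficient PL. Ctso, a cysteine cathepsin, was in both sets (2.63, SE 0.22, and -2.25, SE 0.40), and Lgmn, the asparaginyl protease legumain, was in the latter (-1.38, SE 0.18). Of all genes tested, 26.1% were called higher in RA-sufficient PL against In/B and 11% lower between the PL groups. The few cathepsin calls are therefore not read as a trait of the family. The median of the tested cathepsins was -0.63 in RA-sufficient PL against In/B, where Ctsl rose.

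Among genes that take up, store or sense iron, which transferrin delivers, 2 of 12 were called higher and 6 lower in RA-sufficient PL against In/B. Slc11a2, the iron transporter of endosomes, was at 1.47 (SE 0.14) and Aco1, an iron-sensing protein, at 1.16 (SE 0.23), while the ferrireductase Steap3 was at -1.74 (SE 0.45) and the iron exporter Slc40a1 at -1.27 (SE 0.41). Between the PL groups Aco1 was the only 1 of 12 called (-1.32, SE 0.26), and in RA-deficient PL against In/B 3 were called lower and 0 higher. Of the receptors that bind clusterin, 3 of 6 were called lower in RA-deficient than in RA-sufficient PL. They were Lrp8 (-2.68, SE 0.39), Lrp1 (-2.21, SE 0.15) and Sort1 (-1.52, SE 0.30), and 0 were called higher. Lrp1, Lrp8 and Sort1 each overlap a gene on the opposite strand in GENCODE M1, and the strand setting of the counting is not stated.

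The genes whose profile was most like the mean of the 7 were found by Pearson's r over the 9 libraries, on log2(CPM + 0.5), among 14003 genes that averaged 1 CPM or more. The 10 highest were Amhr2, the receptor of anti-Müllerian hormone (r = 0.999), Gatm, Itpkb, Folr1, Ctnnal1, Vim, Inha, Col18a1, Tmem184a and Wfdc10 (r = 0.994). Amhr2 had means of 17.8, 349 and 31.7 CPM in In/B, RA-sufficient PL and RA-deficient PL. Of these 10 genes 2, Vim and Inha, were in the Sertoli lists, and of the 100 most alike 10 were. Those lists hold only 19 and 16 genes, so these counts do not give the share of genes that Sertoli cells express. Among the 7 themselves, r with the mean of the other 6 ran from 0.901 for Trf and 0.950 for Aard to 0.998 for Defb19. The points are 9 libraries in 3 groups, so these values mainly describe the difference between the groups.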

How the data were processed

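The authors made stranded mRNA libraries from EGFP+ cells of 3 groups, removed adapters from the single-end reads (cutadapt 1.9), aligned these to mm9 (STAR 2.5.2b) and counted them by gene (featureCounts), as the submitters' notes and the paper's methods give. The deposited values are raw counts per gene for 9 libraries, without normalization. The annotation and strand setting of the counting are not given in the sources used here, and 0 count columns were left unused.

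Pairs of groups (3 against 3 libraries) were compared with edgeR 4.0.16 in R 4.3.3, with TMM scaling, filterByExpr, the quasi-likelihood test and Benjamini-Hochberg adjustment over the 15001, 14877 and 15352 genes tested. SE is the log2 fold change divided by the root of the F statistic. Ratios of counts were compared on the log2 scale with two-sided exact permutation tests over libraries. With 12612959 to 27042274 counts per library, 3 counts correspond to 0.113 to 0.221 TMM-scaled CPM, and floors cover counting error only. Coordinates and exon lengths are those of GENCODE M1 (mm9), and promoter windows are from RefSeq (GRCm38.p6).

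The genes, lists and tests were chosen with earlier results of these data known. Named were all 7 genes and, from each other list, called genes that were among the 2 with the lowest or highest log2 fold change of a comparison, not all of which are printed, plus the 10 genes most like the mean profile. Cst3, Mfge8, Defb36, Cst8, Cst11, Cst13, Cstl1, 8030411F24Rik, Sowahd, Sox9, Wt1, Krt18, Insl3, Gdnf, Plau, Cp and the globin genes were named after their values were seen.

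Alternatives tried were RLE factors or library size for the scaling, no filter or a mean of 50 counts for the filter, 1 fit of all 9 libraries, a block for the replicate number, DESeq2 1.42.0, a limit on adjusted p alone, a test against a fold change of 2, and each library left out. The ratio to summed Sertoli markers and each library left out of the ratios were added after seeing the data.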

Additional observations from a re-analysis of the deposited data

Results flagged for a closer look

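Each of the 7 genes differed between RA-sufficient and RA-deficient PL. Both PL groups were set against the same In/B libraries, so their changes from In/B differ by the comparison between the PL groups. In/B cells under continued inhibitor were not among the libraries, so a change within the RA-deficient regimen was not measured. The log2 differences (RA-deficient minus RA-sufficient PL, edgeR) were -3.90 for Cst12, -3.66 for Cst9, -3.52 for Defb19, -3.08 for Clu, -2.41 for Trf, -2.03 for Ctsl and -2.0 for Aard, with adjusted p from 7.90e-04 to 0.0140. All 3 RA-deficient libraries were below all 3 RA-sufficient ones for each of the 7 genes. The share of all genes tested with such a separation was not counted, so this adds nothing to the calls.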

How the results depend on the processing

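In RA-sufficient PL against In/B and between the PL groups, all 7 genes were called under every alternative except for Trf between the PL groups, which was lost without RA-sufficient replicate 1 (-1.98) and in the test against a fold change of 2. Over all alternatives, 303 of the log2 fold changes of the 7 genes kept direction and side of the threshold, 6 reversed, 3 passed it newly and 3 no longer passed it. In RA-deficient PL against In/B, 2 of the 7 were called with DESeq2, with a limit on the adjusted p alone, and with the replicate block, and 0 in the test against a fold change of 2. Reversed were Cst12 with library size only (-0.20), with all 9 libraries in 1 fit (-0.032), without In/B replicate 1 (-0.34) and without RA-deficient replicate 3 (-0.014), and Trf with library size only (-0.090) and without RA-deficient replicate 3 (-0.29). With each library left out, the values ran from -0.34 to 0.73 for Cst12 and from -0.29 to 0.47 for Trf. The cause was not tested.

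Over all genes, 3446 were called in RA-deficient PL against In/B, against 5459 with a limit on the adjusted p alone and 1207 in the test against a fold change of 2. Between the PL groups 2383 were called, against 3629 and 741 under the same alternatives, and 1190 to 4484 with each library left out, the highest without RA-deficient replicate 3 and the lowest without RA-sufficient replicate 2. Scaling by library size only moved the median of all genes by -0.32 in RA-deficient PL against In/B and by -0.18 between the PL groups, and the share of calls that were higher from 49.1% to 28.9% and from 28.8% to 17.5%. Against the summed Sertoli markers in place of Clu, an alternative chosen after seeing the data, all 6 ratios kept their direction.

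Only 2 of 9 same-numbered pairs of libraries had a correlation of their deviations above 0.1 (-0.26 to 0.13), and pairs with different numbers ran from -0.16 to 0.21. The deviations were taken within groups of 3 libraries, which ties them to each other. This cannot decide whether samples were paired by litter or preparation, and the main test used no block. With the replicate block, 6373, 3208 and 1765 genes were called in the 3 comparisons, and 7, 2 and 7 of the secreted-protein genes. Cst9 in RA-deficient PL against In/B was then called, at 1.79 (adjusted p = 0.0424, edgeR).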
